A study of Homo sapiens with 2 samples.

Results

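The ZNF genes, a large human family that mostly encodes DNA-binding proteins with zinc fingers, were examined for peaks of CREB, a transcription factor that responds to cAMP and calcium. The authors' deposited table pairs each CREB peak with the transcription start sites (TSS) within 50 kb of it, and 75 of its 2495 symbols start with ZNF. These 75 symbols, of which 64 are protein-coding, 9 are long non-coding RNAs and 2 are transcribed pseudogenes in RefSeq, are the members described here. For each member the nearest peak was the one with the shortest distance from summit to TSS. The members were thus chosen by having a peak, so the presence, distance and fold of their peaks are given as descriptions without a test.

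The peaks came from chromatin immunoprecipitation with sequencing (ChIP-seq) in the NGP line, which was established from a human neuroblastoma. The cells received no treatment named in the labels and were grown in 20% serum and harvested at 80 to 90% confluency. The names of the deposited peaks carry the tag CAMKV, which the sample titles do not hold or explain. There was 1 ChIP library with an antibody to CREB and 1 input library of DNA that had not been precipitated; neither was replicated, so spread between cultures is unknown throughout. The list held 5285 peaks, and the median summit held 6 fragments.

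Zinc finger proteins of this family carry arrays of fingers, each folded around a zinc ion held by cysteine and histidine residues, and many also carry a KRAB domain that recruits the corepressor TRIM28 (KAP1) and silences transposable elements. The genes arose by repeated tandem duplication, so that many lie in clusters, most of them on chromosome 19, and neighbours share sequence. CREB binds the cAMP response element (CRE), a palindrome of 8 bases, TGACGTCA, found in the promoters of many housekeeping and immediate-early genes.

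Full CREs were found in the promoter windows of ZNF562, ZNF561, ZNF266, ZNF200 and ZNF593, which are also the 5 members with the summit closest to the TSS. A promoter window here runs from 250 bases before to 50 bases after a RefSeq start (GRCh38.p14). The stretches of 30 bases around these sites are shown 5′ to 3′ on the gene's strand, with the CRE in capitals, since they are the CREs next to the member summits closest to a TSS.
ZNF562: cggagcggaagTGACGTCAgtgtgccaccg
ZNF561: tgaagcggaagTGACGTCAgcgcaccaccg
ZNF266: ggaggcggaagTGACGTCAcggagcgctgc
ZNF200: ggcaccggttgTGACGTCAcagccgcagag
ZNF593: ctggccgagagTGACGTCAtcagaggcggt
ZNF562 (chr19:9675089-9675118), ZNF561 (chr19:9621237-9621266), ZNF266 (chr19:9435572-9435601) and ZNF200 (chr16:3235193-3235222) lie on the minus strand and ZNF593 (chr1:26169835-26169864) on the plus strand. The centre of the CRE lay 14.5 bp from the summit at ZNF562, 55.5 bp at ZNF561, 44.5 bp at ZNF266, 6.5 bp at ZNF200 and 21.5 bp at ZNF593. At ZNF266 the CRE lay just outside the called peak, and at the other 4 genes inside it.

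The CRE sat close to the TSS in these promoters. Its first base lay 7 bases before the RefSeq start in ZNF562, 17 before in ZNF266, 23 before in ZNF561, 53 before in ZNF200 and 62 before in ZNF593. The sequence from 250 bases before the start to the start itself is shown for ZNF562, a zinc finger gene of chromosome 19 (chr19:9675100-9675350, minus strand), ZNF561, its neighbour (chr19:9621232-9621482, minus strand), and ZNF200 on chromosome 16 (chr16:3235158-3235408, minus strand), again with the CRE in capitals, to show how far the likeness between the neighbours extends.
ZNF562: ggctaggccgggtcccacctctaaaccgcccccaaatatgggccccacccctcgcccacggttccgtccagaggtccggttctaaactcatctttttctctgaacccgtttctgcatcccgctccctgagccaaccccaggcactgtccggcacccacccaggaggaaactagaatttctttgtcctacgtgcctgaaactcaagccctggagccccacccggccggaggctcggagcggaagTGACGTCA
ZNF561: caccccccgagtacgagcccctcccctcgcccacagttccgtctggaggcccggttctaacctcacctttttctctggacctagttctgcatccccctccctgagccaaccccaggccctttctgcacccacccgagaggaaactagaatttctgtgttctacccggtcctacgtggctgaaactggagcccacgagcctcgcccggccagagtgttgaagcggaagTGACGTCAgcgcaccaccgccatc
ZNF200: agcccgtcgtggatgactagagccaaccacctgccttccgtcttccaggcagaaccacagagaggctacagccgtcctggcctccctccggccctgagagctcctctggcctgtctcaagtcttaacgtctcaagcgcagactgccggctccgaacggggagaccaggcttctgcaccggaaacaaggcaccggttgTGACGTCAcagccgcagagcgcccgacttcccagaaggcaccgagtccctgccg
Over the whole windows, ZNF562 and ZNF561 were identical at 70.6% of aligned positions, ZNF561 and ZNF266 at 62.6%, and ZNF562 and ZNF266 at 56.0%. Between genes on different chromosomes, ZNF562 and ZNF200 were identical at 51.8%, ZNF562 and ZNF593 at 53.7% and ZNF200 and ZNF593 at 53.8%. The likeness was thus clearest for the pair ZNF562 and ZNF561, while ZNF562 and ZNF266 were close to the level of genes on different chromosomes.

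Peak by peak, these sites were of moderate height in a list whose members rest on few fragments. The authors' fold enrichment of the ChIP library over its background was 8.03 at ZNF562, with 9 fragments at the summit (95% Poisson interval 4.12 to 17.1) and the summit 18 bp upstream of the TSS. At ZNF561 the fold was 6.84 with 8 fragments (3.45 to 15.8), 75 bp upstream. At ZNF266 it was 5.32 with 6 fragments (2.20 to 13.1), 53 bp upstream. All 3 are zinc finger genes of the same cluster on the short arm of chromosome 19, and their intervals overlap, so no order among them can be read.

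The other promoter peaks lay elsewhere. ZNF200 on chromosome 16 had a fold of 7.83 with 9 fragments (95% Poisson interval 4.12 to 17.1), 56 bp upstream of the TSS. ZNF593 on chromosome 1, which encodes a small protein with a role in ribosome biogenesis, had a fold of 5.42 with 13 fragments (6.92 to 22.2), 80 bp upstream. The ZNF593 summit had the most fragments of any member's nearest peak, but its expected background was 1.58 fragments against 0.277 at ZNF200, so that its fold was the lower of the pair.

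The remaining 3 promoter peaks had no CRE in the promoter window. ZNF687 on chromosome 1, a gene mutated in Paget disease of bone, had a fold of 4.44 with 5 fragments (95% Poisson interval 1.62 to 11.7) and its summit 159 bp downstream of the TSS. ZNF77 on chromosome 19 had a fold of 5.59 with 7 fragments (2.81 to 14.4), 338 bp upstream. ZNF672 on chromosome 1 had the highest fold of any nearest peak, 9.88 with 12 fragments (6.20 to 21.0), and its summit was the farthest inside the limit, 726 bp downstream. The summits of all 3 lie outside the promoter windows of the matched starts, so the bases directly under them were not searched.

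In all, 10 of the 75 members had the nearest summit at most 1 kb from the TSS (13.3%, 95% Clopper-Pearson interval 6.58 to 23.2), against 14.8% of all symbols in the table. The share is near that background and is not a result about ZNF genes. With stricter peaks it rose in both sets: at a −log10 q of at least 2 it was 22.2% of 45 members against 18.7% of all symbols, and at 5 or more it was 41.7% of 12 members against 21.9%. With a fold at or above the median of the peak list it was 29.6% of 27 members against 21.5%. The 10 rest on 8 peaks: ZNF561 shares its peak with the antisense gene ZNF561-AS1, 175 bp from the summit, and ZNF687 shares its peak with ZNF687-AS1, 248 bp from it. A peak cannot be assigned to either gene of such a pair. Within 200 bp lay 7 members (9.33%, against 9.54% of all symbols) and within 20 kb lay 36 (48.0%, against 50.8%). The median distance was 21.2 kb for members and 19.6 kb for all symbols, and the median fold was 4.82 in both.

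**Figure D1:**
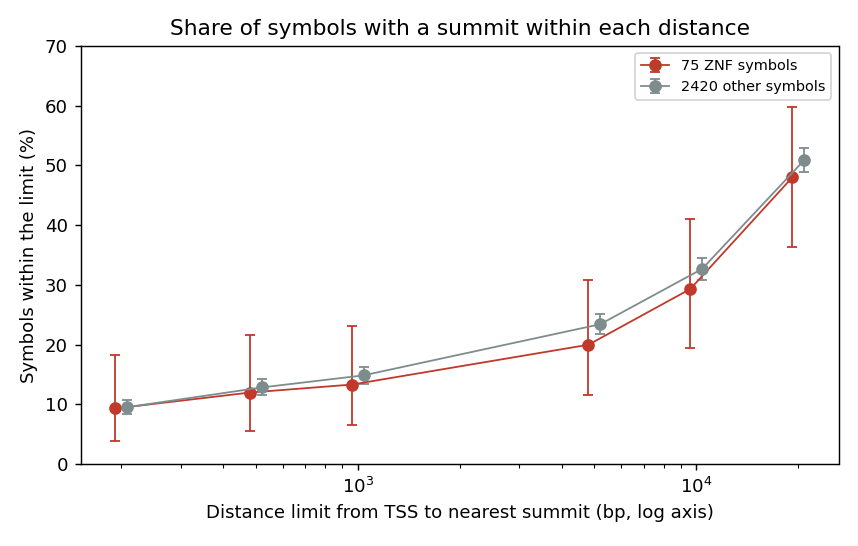
Share of symbols (percent, y axis) whose nearest summit lies within each distance of the TSS (x axis, log scale), for the 75 ZNF symbols and the 2420 other symbols. Bars are 95% Clopper-Pearson intervals. The 2 curves run together, with 13.3% and 14.9% within 1 kb, and the intervals overlap at each distance plotted.

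Just outside the limit lay ZNF165 (1011 bp, fold 4.01), a cancer-testis antigen gene, ZNF295-AS1 (1092 bp, fold 4.82) and ZNF524 (2568 bp, fold 4.01). Just inside it lay ZNF672 (726 bp), ZNF77 (338 bp) and ZNF687-AS1 (248 bp). No member lay between 726 and 1011 bp. The farthest nearest summit was that of ZNF815P, a pseudogene, at 48.3 kb, with the lowest fold of all members, 3.71.

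Fold differed between near and far members as a description. A fold of 5 or more was seen at 27 of 75 members (36.0%), against 45% of all symbols in the table. Within 1 kb it was seen at 8 of 10 members, against 68.1% of all symbols there. Beyond 1 kb it was seen at 19 of 65 members (29.2%, 95% Clopper-Pearson interval 18.6 to 41.8), against 40.9% of all symbols there. Of the 75 members, 42 had at most 5 fragments at the nearest summit, and none had more than 13. The 10 members with the highest fold were ZNF672 and ZNF692 (9.88, one shared peak), ZNF598 (9.62), ZNF562 and ZNF812P (8.03, shared), ZNF200 and ZNF263 (7.83, shared), and ZNF561, ZNF561-AS1 and ZNF121 (6.84, shared).

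**Figure D2:**
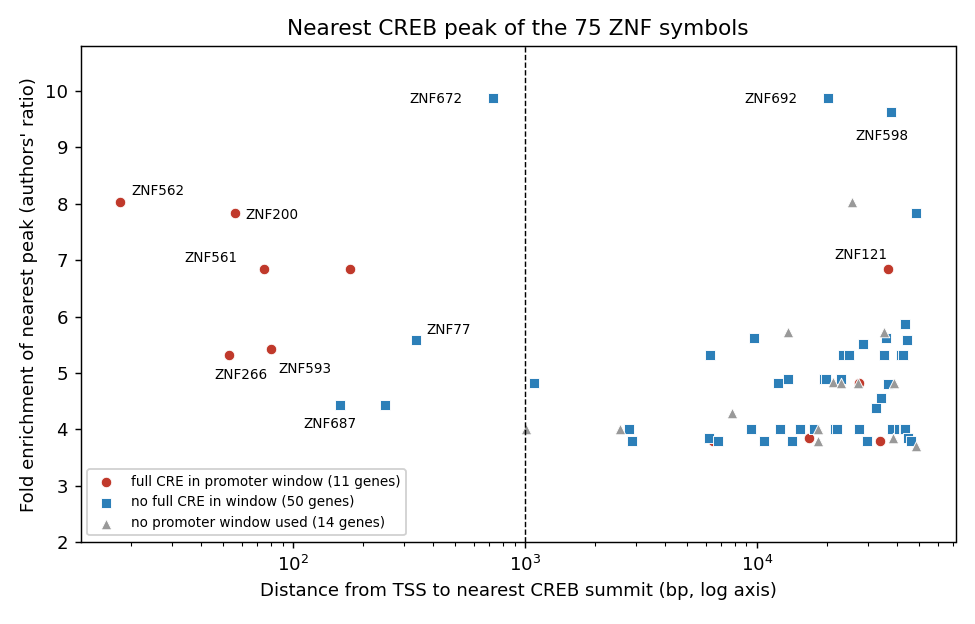
Authors' fold enrichment of the nearest peak (y axis) against the distance from TSS to summit (bp, x axis, log scale) for the 75 ZNF symbols, 1 point each; symbols that share a peak have the same fold. Colours mark whether the promoter window holds the full CRE, and the dashed line is 1 kb. The points left of 100 bp all hold a CRE, and ZNF672 and ZNF692, which share a peak, have the highest fold without one.

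Of the 65 members beyond 1 kb, 11 (16.9%, 95% Clopper-Pearson interval 8.76 to 28.3) had a nearest peak that lay within 1 kb of another symbol's TSS. Among all symbols of the table beyond 1 kb the share was 23.9%, which lies inside that interval. Members share peaks, so the interval is too narrow, and nothing particular to ZNF genes can be read from the share. For 5 of these the other gene was itself a ZNF gene: ZNF121 (36.8 kb) was paired with the ZNF561 peak, ZNF812P (25.7 kb) with that of ZNF562, ZNF263 (48.3 kb) with that of ZNF200, ZNF57 (44.4 kb) with that of ZNF77 and ZNF692 (20.1 kb) with that of ZNF672. For the other 6, the symbol of the other gene did not start with ZNF. The peak of ZNF598, a ubiquitin ligase that acts at collided ribosomes, lay 70 bp from the TSS of TBL3, which encodes a protein of ribosomal RNA processing. ZNF646 and ZNF668 were paired with a peak 89 bp from the start of KAT8, a histone acetyltransferase (fold 5.88). ZNF500 was paired with a peak 12 bp from ROGDI (fold 5.62) and ZNF821 with one 56 bp from ATXN1L (fold 4.82). ZNF295-AS1 was paired with a peak 74 bp from ZBTB21 (fold 4.82), itself a zinc finger gene, whose promoter window holds a CRE. For 54 members no TSS of the table lay within 1 kb of the nearest summit.

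Chromosome 19 held 40 of the 75 members (53.3%, 95% Clopper-Pearson interval 41.4 to 65.0). It also holds 250 of the 518 protein-coding ZNF genes in RefSeq (48.3%), a similar share, and 33 of those 250 genes (13.2%) were paired with a peak, against 31 of the 268 on other chromosomes (11.6%). Over all chromosomes 64 of 518 coding ZNF genes (12.4%, interval 9.65 to 15.5) were paired, against 8.34% of all 19974 coding genes. Symbols share peaks in both sets, the 64 coding members resting on 40 nearest peaks and the 1665 coding symbols of the whole table on 858. Among all members, 53 of 75 had the same nearest peak as another member. The interval for 64 of 518 is thus too narrow, and whether that share exceeds the 8.34% was not tested. With a summit within 1 kb there were 8 of 518 (1.54%, interval 0.669 to 3.02), against 1.32% of all coding genes, a share near the background.

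The members outside chromosome 19 were spread over 11 chromosomes, with 8 each on chromosomes 1 and 16, 4 on chromosome 12, 3 each on 5, 6 and 18, 2 on 8 and 1 each on 4, 7, 10 and 21. Of the 5 members within 1 kb outside chromosome 19, 4 lay on chromosome 1 (ZNF593, ZNF687, ZNF687-AS1 and ZNF672) and 1 on chromosome 16 (ZNF200). On chromosome 19 the 5 were ZNF562, ZNF561, ZNF561-AS1, ZNF266 and ZNF77. Among the distant members elsewhere were ZNF423 on chromosome 16, a developmental factor of the nervous system (12.5 kb, fold 4.01), and ZNF451 on chromosome 6, a SUMO ligase (21.2 kb, fold 4.84).

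Runs of at least 3 members with at most 500 kb between neighbouring TSS numbered 7, of which 6 lay on chromosome 19, and they held 41 of the 75 members. The run from 9.14 to 9.70 Mb held ZNF317, ZNF266, ZNF121, ZNF561, ZNF561-AS1, ZNF562 and ZNF812P on 4 peaks, and it was the one run with summits within 1 kb, at 4 of its 7 members. The run from 11.99 to 12.61 Mb held 7 members, among them ZNF433 (6.27 kb) and ZNF44 (36.6 kb), on 3 peaks with folds of 4.38 to 5.32. The run from 55.5 to 55.6 Mb also held 7 members, on 2 nearest peaks, and a single peak with 4 fragments between ZNF524 and ZNF865 was the nearest peak of 6 of them. The runs near 52.3 and 57.2 Mb held 4 members each on 1 peak (folds 4.01 and 3.80). The run outside chromosome 19, at 133 Mb of chromosome 12, held ZNF140, ZNF891 and ZNF10 on 1 peak with a fold of 4.82. ZNF10, also called KOX1, is the source of the KRAB domain used in many repressor fusions.

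The run from 36.2 to 37.3 Mb of chromosome 19 differed in its number of peaks. Its 9 members were paired with 29 peaks, and the nearest peak of each lay in a window of 1 Mb that holds 10 or more peaks. ZNF875 was paired with 19 of the 29 peaks, at 9.73 to 42.4 kb. Their folds ran from 4.01 to 6.42 (median 5.62), and their summits followed each other at a median gap of 1.67 kb. ZNF565 was paired with 7 peaks, at 28.7 to 50.01 kb, with folds of 4.42 to 8.48 (median 5.51) and a median gap of 2.35 kb. Both are zinc finger genes, and no summit lay within 1 kb of any of the 9 TSS. Symbols outside the family were paired with peaks of these sets too, LINC01535 and LOC284412 beside ZNF875, and LINC00665 and LOC100134317 beside ZNF565. The peaks are thus not particular to the ZNF genes. Whether these closely spaced peaks lie in repeated sequence was not tested. Of all 75 members, 71 were paired with 1 peak each, and ZNF200 and ZNF628 with 2.

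Some whole clusters of the family held no paired gene, where 8.34% of all coding genes were paired with a peak. Coding ZNF genes in RefSeq formed 11 clusters of 10 or more genes with starts at most 500 kb apart, 8 of them on chromosome 19. The cluster from ZNF101 to ZNF254, at 19.7 to 24.1 Mb, held 37 coding ZNF genes, no member and no peak. The cluster from ZNF575 to ZNF180, at 43.5 to 44.5 Mb, held 23 such genes and likewise none, as did both clusters on chromosome 7, with 11 and 10 genes. Members were 7 of 17 genes from ZNF628 to ZNF835 and 7 of 26 from ZNF565 to ZNF573. They were 5 of 14 from ZNF414 to ZNF846 and 3 of 43 from ZNF264 to ZNF446. Over all coding ZNF genes 12.4% were paired. The clusters named here with members held 3, 38, 6 and 1 peaks in that order, so most of these shares rest on few peaks. How often stretches of this size hold no paired gene was not tested. How many reads of these clusters could be placed uniquely is not given in the sources used here, so a cluster without a peak is not shown to lack CREB.

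**Figure D3:**
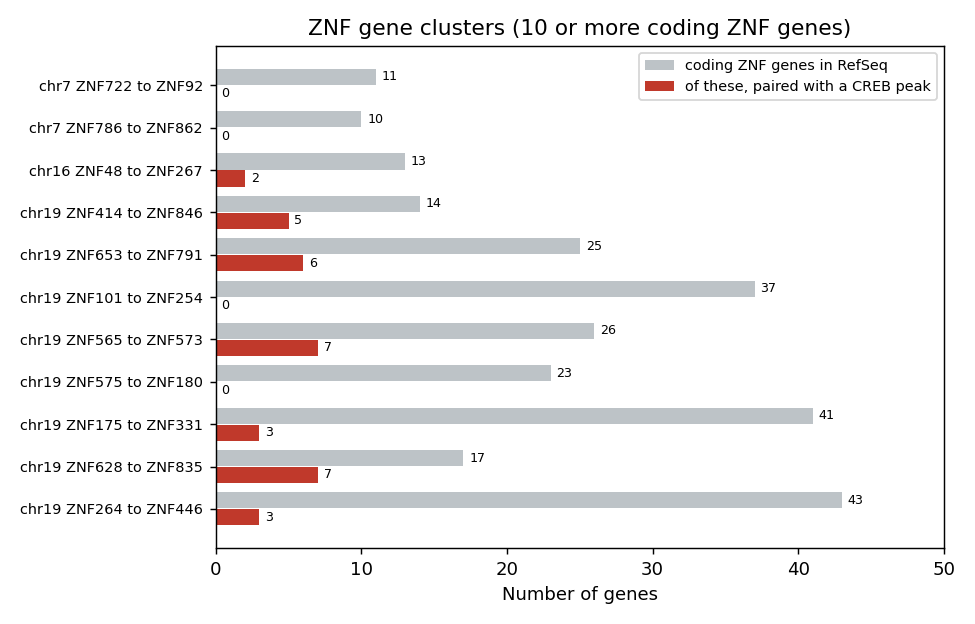
Number of coding ZNF genes (x axis) in the 11 RefSeq clusters with 10 or more of them (grey) and the number of these paired with a CREB peak (red); each cluster is named by its first and last gene. The chromosome 19 clusters from ZNF101 to ZNF254 (37 genes) and from ZNF575 to ZNF180 (23 genes) have no paired gene, as have both clusters of chromosome 7.

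The CRE was then counted over all members, as a property of the sequence that the choice of members did not use. For 61 of the 75 members a RefSeq start lay within 100 bp of the table's TSS. Of these promoter windows, 6 of 10 held the full CRE where the summit lay within 1 kb, and 5 of 51 (9.80%, 95% Clopper-Pearson interval 3.26 to 21.4) where it lay beyond. The windows of ZNF561 and ZNF561-AS1 contain the same site. For the other symbols of the table the counts were 54 of 210 (25.7%, interval 19.9 to 32.2) within 1 kb and 38 of 1151 (3.30%) beyond it, and over all 34943 RefSeq starts the share was 1.84%. Counted by peak, 5 of 8 member peaks within 1 kb had a CRE in a promoter window there (62.5%, interval 24.5 to 91.5), against 50 of 177 other peaks (28.2%, interval 21.7 to 35.5). With 8 peaks the first interval is wide and overlaps the second, and whether ZNF promoters differ from others was not tested.

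**Figure D4:**
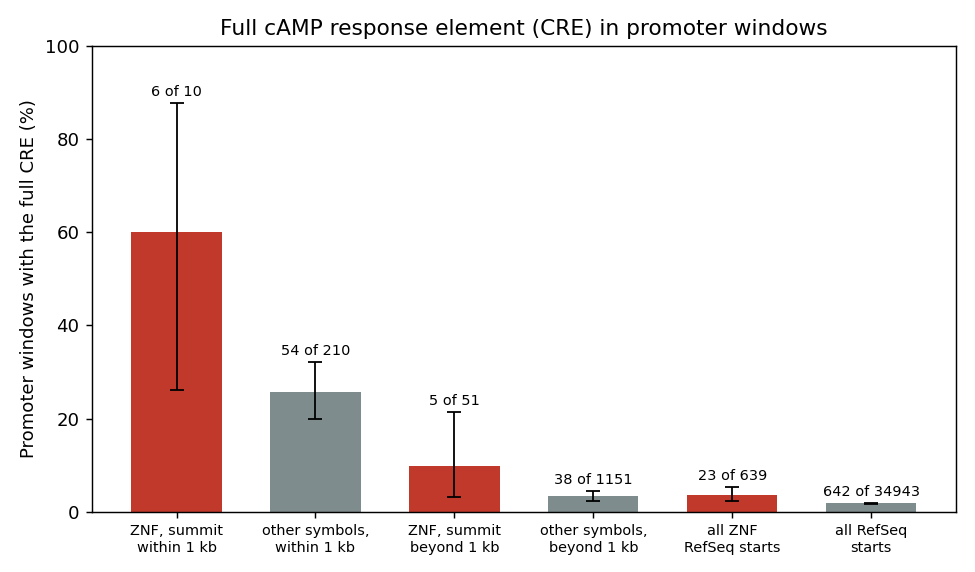
Share of promoter windows that hold the full CRE (percent, y axis) for ZNF symbols (red) and other sets (grey), split by whether the nearest summit lies within 1 kb; bars are 95% Clopper-Pearson intervals and counts stand above them. ZNF windows with a summit within 1 kb (6 of 10) stand at 60.0%, far above the 1.84% of all starts, with an interval that overlaps that of other symbols within 1 kb.

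The shorter core of the CRE, TGACG on either strand, was less selective. It is contained in the full site and was found in 8 of 10 member windows with a summit within 1 kb and in 17 of 51 beyond it. For the other symbols it was found in 158 of 210 windows (75.2%) within 1 kb and in 27.9% beyond, and in 24.5% of all starts. The member shares are thus near those of other symbols. Distances from CRE to summit were taken only where a promoter window held a CRE. Over the 5 member peaks they ran from 6.5 to 55.5 bp (median 21.5). These summits lay at most 80 bp from the TSS of a member, so short distances follow in part from the choice of sites. Over 59 other peaks the median was 46.5 bp, with 44 within 100 bp. The 59 were counted at any RefSeq start with a CRE and a summit within 1 kb, whereas the 50 above were counted only at starts matched to a TSS of the table.

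A CRE did not go with a called peak at most ZNF starts. Of 23 ZNF starts with the full CRE in the window, 6 had a summit within 1 kb (26.1%, 95% Clopper-Pearson interval 10.2 to 48.4), against 5 of 616 without it (0.812%). Over all genes the figures were 88 of 642 (13.7%) and 262 of 34301 (0.764%). The 23 windows held 18 distinct sites, 13 of them without a summit within 1 kb. Sites without a peak lay at ZNF121 and ZNF426, neighbours of the marked genes on chromosome 19, at ZNF10 on chromosome 12, at ZNF460 and ZNF543 in the run near 57.2 Mb, and at ZNF143, an activator of small nuclear RNA genes, and ZNF335, a microcephaly gene. The sites of 5 of these are shown in the same way, for comparison with those that had a peak.
ZNF121: cggagcggaagTGACGTCAgcgcacaatcg
ZNF426: gagagcgtaaaTGACGTCAgcggtgcgccg
ZNF10: gtgcgcgtgcgTGACGTCAggccacgggga
ZNF460: gcttcttcgtgTGACGTCAtctccgtgggc
ZNF543: gcttcgtcgcgTGACGTCAtctccgtgagc
ZNF121 (chr19:9584536-9584565) and ZNF426 (chr19:9538648-9538677) lie on the minus strand, and ZNF10 (chr12:133130569-133130598), ZNF460 (chr19:57280443-57280472) and ZNF543 (chr19:57320467-57320496) on the plus strand. The nearest summit was 36.8 kb from ZNF121 and 27.4 kb from ZNF10. The weakest member peaks rest on 4 fragments, so binding that gives fewer was not detectable at this depth.

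The chromosome 19 neighbours share more than the CRE. ZNF562, ZNF561, ZNF266 and ZNF121 have the same 15 bases up to and including it, shown here with the CRE in capitals because it recurs at starts outside the family.
Shared stretch: gcggaagTGACGTCA
Searched on both strands, it occurred in 11 of 34943 RefSeq promoter windows (0.0315%), of which 7 had a summit within 1 kb. Of those 11, 5 were the starts of the 4 genes from which the stretch was taken and of ZNF561-AS1, and LOC105372269 shares the ZNF266 site. The others were MAGOH, a component of the exon junction complex, and MAGOH-DT, whose shared peak had a fold of 4.64 with 5 fragments, and 2 starts of MLF2 and NAT14 on chromosomes 12 and 19, without a summit within 1 kb. The stretch was read from genes chosen for their peaks, so the 7 of 11 is a description. ZNF121 carries it and had no peak of its own, while at ZNF426 the bases just before the CRE differ. Likeness over the whole windows did not separate these genes from neighbours with a peak. ZNF121 was identical to ZNF561 at 65.5% of aligned positions, to ZNF266 at 56.5% and to ZNF562 at 56.0%. For ZNF426 the values were 65.1%, 63.5% and 60.5%. Between ZNF561 and ZNF266, both with a peak, it was 62.6%.

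Genes related to the ZNF proteins were counted from lists. Of 28 genes of the KRAB corepressor machinery, among them TRIM28, the histone methyltransferase SETDB1 and the HP1 genes CBX1, CBX3 and CBX5, 1 was paired with a peak (3.57%, against 8.34% of all coding genes): SUV39H2, a histone methyltransferase, at 40.8 kb with a fold of 5.62. None had a summit within 1 kb. Of 146 coding genes of other zinc finger families taken by symbol, 13 were paired (8.90%) and 3 lay within 1 kb (2.05%, against 1.32% of all coding genes). The 3 were ZBTB21 (74 bp, fold 4.82), SP2 (205 bp, fold 7.72, 10 fragments) and the immediate-early gene EGR1 (269 bp, fold 4.82). None of 21 ZSCAN, 7 ZKSCAN, 21 ZFP, 15 PRDM or 18 KLF genes had a summit within 1 kb. At the 1.32% of all coding genes, a list of this size would mostly hold none. These zeros, and that of the corepressor genes, thus show no difference from all coding genes. Nor does 1 paired gene of 28 show a shortage. Of 14 genes of the CREB family, its coactivators and known targets, 3 were paired, all within 1 kb (21.4%). Over all coding genes 8.34% were paired and 1.32% lay within 1 kb. The 3 were FOS (92 bp, fold 6.69), FOSB (179 bp, fold 4.82) and again EGR1, all of them targets. None of these 3 had the full CRE in its promoter window. The target NR4A1 was not paired, nor was any family or coactivator gene of the list, such as CREB1, CREM and CREBBP.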

How the data were processed

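Data were 1 CREB ChIP-seq library and 1 input library of NGP cells. Bowtie2 and MACS2 were used with hg38, per the submitters' processing notes; versions, read filters and settings were not given in the sources used here. The deposited peak list gives, per peak, a fold enrichment (ratio), −log10 p and −log10 q at the summit, and a score (10 times the −log10 q, cut to whole numbers); the lowest −log10 q was 1.32. The deposited table pairs peaks with refGene TSS within 50 kb.

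Distances ran from summit to TSS. Fragments were recovered from fold and p, taking fold as (fragments + 1) / (background + 1) and p as a Poisson tail; the −log10 p was met within 0.001 (above 100, within a relative 1e-05) in 5280 of 5285 peaks, including all 42 nearest peaks of members. The other 5 lay beyond the range of this calculation. Recovery was tested on simulated data made with the same formulas. That checks the calculation only, and cannot show how the authors' values were made. Intervals cover counting error only, since there was 1 ChIP library without a replicate, and reads carry no molecular identifiers. Clopper-Pearson intervals treat symbols as independent. Because 53 of the 75 members share their nearest peak with another member, the intervals over symbols are too narrow. RefSeq GRCh38.p14, the same build, gave gene types, promoters and their sequences. All 75 symbols matched RefSeq genes and 67 had a promoter, of which 61 were used. Promoters were aligned with Biopython 1.88 (match 1, mismatch -1, gap -2 and -0.5). Protein features were planned and not computed here.

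Members, lists and tests were chosen with earlier results of these data known. Named were the members within 1 kb, the 10 highest folds, those with 4 or more peaks and the 3 on each side of 1 kb. The others, the RefSeq clusters, the CRE positions, the shared stretch and the count of peaks at other starts were chosen after the values were seen. Alternatives were stricter peaks, other distances and gaps, coding genes alone, and the list without windows of 1 Mb holding 10 or more peaks.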

Additional observations from a re-analysis of the deposited data

How the results depend on the processing

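No paired analysis was possible because the series holds 1 ChIP and 1 input library and no result comes from a test between groups. Leaving out the dense windows, counting coding genes alone, changing the cluster gap, measuring from the peak edge or a limit of 500 bp or 5 kb changed no count by over 1.5 times. With a −log10 q of at least 2, members fell from 75 to 45, those on chromosome 19 from 40 to 18, the runs from 7 to 3 and distinct nearest peaks from 42 to 27, and the median fold was 5.32; 22.2% lay within 1 kb, against 18.7% of all symbols under the same filter. With at least 5, 12 members were left (7 on chromosome 19), on 7 peaks with 1 run and a median fold of 7.83; 5 lay within 1 kb, a share of 41.7% against 21.9% of all symbols, namely ZNF562, ZNF561, ZNF561-AS1, ZNF200 and ZNF672, and 63.6% of promoter windows held the CRE core. With fold at or above the median of the list, 27 members were left (14 on chromosome 19), on 15 peaks with 2 runs and a median fold of 5.73, and 29.6% lay within 1 kb, against 21.5% of all symbols. The CRE core was in 41.0% of member windows and the full palindrome in 18.0%. The stricter settings remove peaks of few fragments by construction, and the share within 1 kb rose with them for members and for all symbols; with 12 to 45 members left, whether it rose more for ZNF genes was not tested.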
